A study of Mus musculus with 6 samples.

Results

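Nuclear receptors are transcription factors that bind DNA through a zinc finger domain and respond through a second domain to small lipophilic ligands such as retinoic acid, thyroid hormone, fatty acids and oxysterols. Many of them act on DNA as partners of the retinoid X receptors, and a group of them, the orphan receptors, has no established hormone. In the epididymis, the duct in which spermatozoa mature, retinoid and androgen signalling are known to be needed for a normal epithelium. The receptors described here were chosen by gene symbol from those outside the classical steroid receptors, and they are not the full set. The symbol pattern matched 43 of the 24346 genes of the table, and 40 remained after Nr3c1, Nr3c2 and Nr4a1 were left out, of which Nr4a1 is an orphan receptor. Symbols that start with Nr1i, those of the xenobiotic receptors PXR and CAR, are not covered by the pattern.

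RNA was sequenced from the caput, the proximal portion of the epididymal duct, in 6 libraries of mice aged 8 weeks. The wild-type group held 3 libraries and the knockout (KO) group 3 libraries of genotype Adgrg2-/Y, that is, males whose single X chromosome carries the mutant allele of Adgrg2, which encodes a receptor of the adhesion class coupled to G proteins. The labels give neither the strain nor the part of the gene that was altered, nor do they name the animal behind each library, so the p-values cover library-to-library spread, part of which may be technical. Levels are given in FPKM, fragment numbers scaled for transcript length and library size, as the authors deposited them.

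The normalized counts summed to between 18136864 and 21455984 per library. Adgrg2 itself was at 808, 850 and 841 FPKM in wild-type libraries, against 410, 324 and 328 FPKM in the KO, so transcripts of the gene remained in the KO. The difference of -1.24 ± 0.16 (SE) on the log2 scale did not pass the threshold used below (limma, adjusted p = 0.0579). KO replicate 3 stood apart from the other 5 libraries. On the first principal component, which held 68.2% of the variance, it lay at 80.1, with KO replicates 1 and 2 at -4.3 and 1.8 and wild-type between -27.7 and -24.5. The initial segment, the first stretch of the caput, was measured by a list of 11 genes that includes Lcn8. These summed to 34877 to 36924 FPKM in wild-type and to 18118, 5583 and 2493 FPKM in KO replicates 1, 2 and 3; none was at 0 in KO replicate 3.

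The sequences just around the transcription starts of the 4 tested receptor genes with an unadjusted p under 0.05 are shown first, since these are the receptor genes whose genotype differences stood out most from the spread between libraries. Each run covers 250 bases before to 50 bases after an annotated start (RefSeq, build GRCm38.p6, the assembly called mm10), 5′ to 3′ on the strand of the gene. Capitals mark matches to AGGTCA, the half-site that many nuclear receptors bind, searched on both strands.
Ppara, chr15:85735526-85735825, strand +: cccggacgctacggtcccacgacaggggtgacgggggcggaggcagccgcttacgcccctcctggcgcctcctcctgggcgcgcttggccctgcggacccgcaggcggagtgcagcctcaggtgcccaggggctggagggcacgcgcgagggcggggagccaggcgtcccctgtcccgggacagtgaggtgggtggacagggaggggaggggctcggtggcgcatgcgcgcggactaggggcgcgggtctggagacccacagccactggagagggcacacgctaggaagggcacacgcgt
Thrb, chr14:17660710-17661009, strand +: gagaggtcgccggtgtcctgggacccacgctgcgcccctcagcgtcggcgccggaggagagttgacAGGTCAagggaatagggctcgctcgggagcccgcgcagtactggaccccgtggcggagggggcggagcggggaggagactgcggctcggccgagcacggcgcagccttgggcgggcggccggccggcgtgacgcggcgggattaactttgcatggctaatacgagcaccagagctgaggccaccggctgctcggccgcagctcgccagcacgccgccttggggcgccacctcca
Rara, chr11:98964622-98964921, strand +: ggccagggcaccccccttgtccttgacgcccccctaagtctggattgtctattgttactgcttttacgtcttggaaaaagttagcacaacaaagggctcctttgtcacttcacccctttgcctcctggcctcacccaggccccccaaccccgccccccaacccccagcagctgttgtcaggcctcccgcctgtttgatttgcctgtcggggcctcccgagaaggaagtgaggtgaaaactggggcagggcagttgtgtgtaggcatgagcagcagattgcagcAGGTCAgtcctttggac
Nr2f6, chr8:71381903-71382202, strand -: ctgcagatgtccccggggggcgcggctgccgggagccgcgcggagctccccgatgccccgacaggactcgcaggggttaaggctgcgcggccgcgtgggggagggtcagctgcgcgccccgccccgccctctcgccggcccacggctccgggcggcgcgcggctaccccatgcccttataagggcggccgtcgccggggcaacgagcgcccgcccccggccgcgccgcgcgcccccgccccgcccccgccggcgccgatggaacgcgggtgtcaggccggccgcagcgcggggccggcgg
Rara has several annotated starts and Thrb as well, and for these the window that holds a half-site is shown; the FPKM of a gene do not tell which start was used. Chosen for holding it, the Thrb window had the half-site at -184 and the Rara window at 34, counted from the start. The other windows of both genes held no match, nor did the windows of Ppara and Nr2f6. Of the 40 receptor genes 36 had an entry, with 56 windows in all, and 12 of these windows (21.4%) held AGGTCA, against 5340 of 32851 windows of all genes (16.3%). The E-box CACGTG, bound by clock factors, was present in 4 of the 56 windows (7.14%), in genes Nr0b2, Rara and Thrb, against 7.15% of all windows. A match is a description of the letters and not evidence of binding.

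Of the 40 receptor genes, 23 averaged 1 FPKM or more across the 6 libraries and were tested among 12799 genes, and 17 lay below this level. In wild-type, 11 of the 23 were at 10 FPKM or more, 11 between 1 and 10 FPKM, and Esrrb at 0.719 FPKM, which passed the filter only through a high value in KO replicate 3. The most abundant were Nr1h2, the oxysterol receptor LXR beta, at 43.9 ± 3.14 FPKM, and Nr2f6, an orphan receptor of the COUP-TF family, at 39.2 ± 1.81 FPKM (SD, n = 3). After them came Ppard at 25.2 ± 1.38 FPKM, Rxra at 20.2 ± 0.239 FPKM and Rxrb at 19.0 ± 0.778 FPKM. In this order of wild-type levels, several neighbours could not be separated because their ranges overlapped. These were Nr1h2 and Nr2f6, then the run of Thra, Rarg, Nr2f2 and Esrra, the run of Nr1d1, Rara and Nr2c1, the run of Thrb, Ppara, Esrrg, Rora and Nr1h3, and Nr2f1 with Nr6a1. Every other adjacent pair of the 23 had separate ranges in the 3 wild-type libraries.

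**Figure D1:**
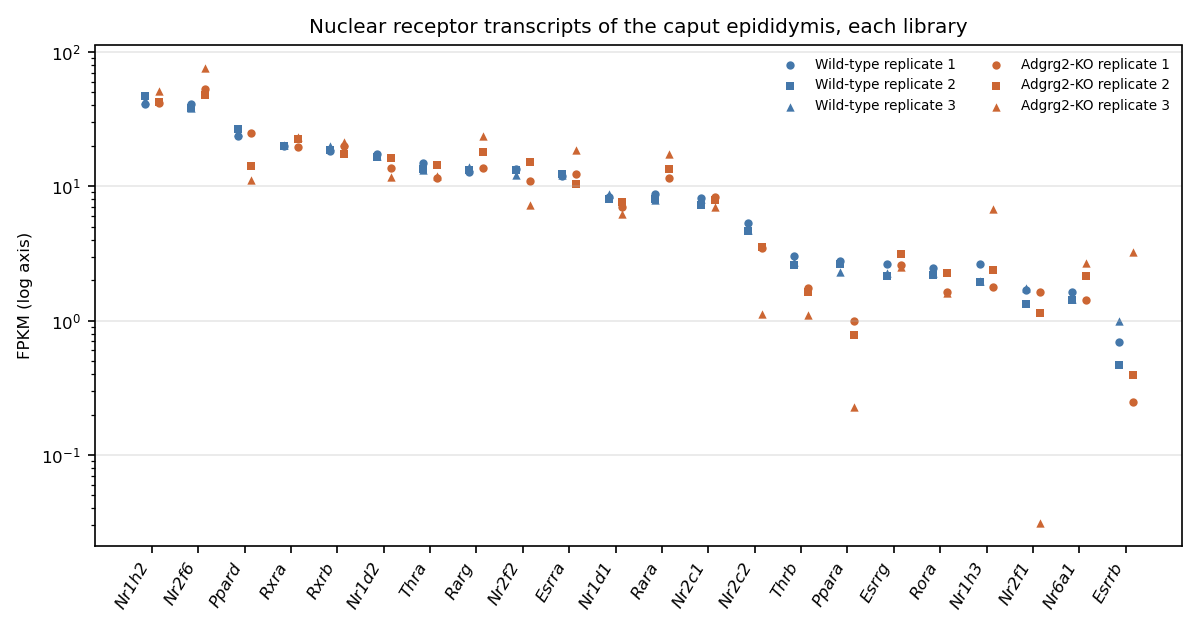
FPKM (log axis) of 22 tested receptor genes in each library, ordered by the wild-type mean, with wild-type in blue and Adgrg2-KO in orange and the marker shape giving the replicate. Wild-type libraries lie close together, and KO replicate 3 (triangles) lies farthest from them for Ppara, Nr2c2, Nr2f1, Nr1h3 and Esrrb.

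No receptor gene passed the threshold of an adjusted p under 0.05 in the comparison of genotypes (limma on log2(FPKM + 1), Benjamini-Hochberg over all tested genes). Over all genes 32 passed, or 0.25% (0.172% lower and 0.0781% higher in the KO). At an unadjusted p under 0.05 stood 4 of the 23 receptor genes (17.4%), next to 17.5% of all tested genes. In 7 of the 23 (30.4%) the 3 KO libraries all lay below or all lay above the 3 wild-type libraries, next to 32.9% of all tested genes (16.1% lower, 16.8% higher). Both shares were near those of all genes. The 7 were Ppara, Thrb, Nr2c2, Nr1d1 and Nr1d2, which were lower in the KO, and Rara and Nr2f6, which were higher. The median log2 difference over the 23 was 0.03, next to 0.01 over all genes, with 11 of 23 negative.

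The receptor genes spread widely in KO replicate 3. The median size of the difference from the wild-type mean, without regard to sign, was 0.21, 0.28 and 0.74 on the log2 scale in KO replicates 1, 2 and 3 over the 23 genes, and 0.16, 0.20 and 0.46 over all tested genes. Without KO replicate 3, 2 receptor genes passed, Ppara lower and Rara higher, next to 4.93% of all tested genes (2.34% lower, 2.59% higher). At an unadjusted p under 0.05 stood 5 of the 23, next to 25.4% of all genes. The genotypes of 8 receptor genes (34.8%) did not overlap, 6 lower and 2 higher, next to 44.8% of all genes (22.7% lower, 22.1% higher). The 8 are the same 7, which leaving out a KO library cannot alter, and Esrrb, which reached the tested level only through the library left out. Without KO replicate 1, Ppara and Ppard passed as lower and no receptor gene as higher, next to 4.23% of all genes (2.75% lower, 1.48% higher; 25.8% at an unadjusted p under 0.05). The median SD of a gene on the log2 scale was 0.284 in the KO, 0.145 in the KO without replicate 3, and 0.067 in wild-type.

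**Figure D2:**
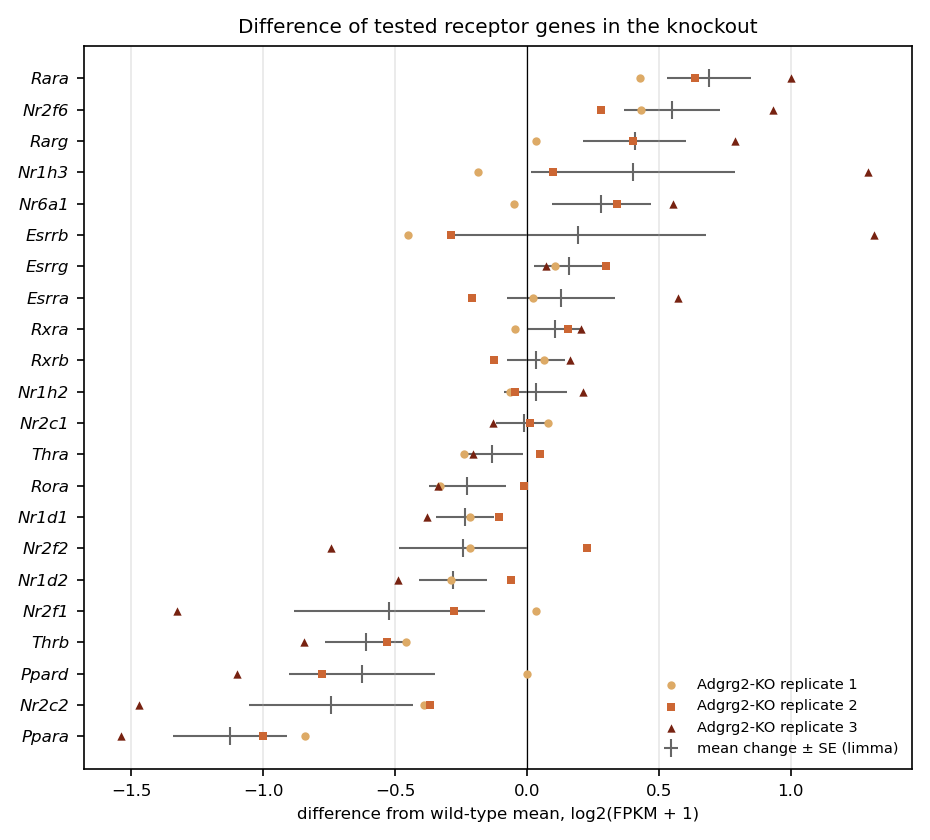
Difference of each KO library from the wild-type mean on the log2(FPKM + 1) scale for 22 tested receptor genes (points), with the fitted mean change and its SE (grey). Ppara, Nr2c2 and Thrb have all 3 KO libraries below 0 and Rara and Nr2f6 all 3 above 0, while Ppard has KO replicate 1 at the wild-type level.

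Among the peroxisome proliferator-activated receptors, which sense fatty acids, Ppara (NCBI gene 19013, chromosome 15, 85734910 to 85806851, mm10), the isotype known for driving fatty acid oxidation, showed the largest difference of any tested receptor gene. It was at 2.77, 2.65 and 2.30 FPKM in wild-type libraries, against 0.991, 0.781 and 0.229 FPKM in the KO (replicates 1 to 3 in order, here and for the other genes). The genotypes were well separated, and KO replicate 3 was lowest. The mean was 3.86-fold lower in the KO, or 2.90-fold lower without KO replicate 3. On the log2 scale the difference was -1.13 ± 0.22 (SE, limma, adjusted p = 0.111), and its p passed the threshold under 3 alternatives. Leaving out KO replicate 3 gave -0.92 with an adjusted p of 0.0236, leaving out KO replicate 1 gave -1.27 with 0.0467, and quantile normalization gave 0.0487. Over all alternatives its adjusted p lay between 0.024 and 0.54.

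Ppard (chromosome 17, 28232754 to 28301469), the widely expressed isotype, was the most abundant of the group. It was at 23.8, 26.5 and 25.2 FPKM in wild-type libraries, against 25.1, 14.3 and 11.2 FPKM in the KO. KO replicate 1 lay within the wild-type range and the other two lay below it, so the groups overlapped (log2 difference -0.63 ± 0.28 SE, limma, adjusted p = 0.307). Without KO replicate 1 the difference was -0.94 (adjusted p = 0.0351). Pparg, the isotype of fat cells, was at most 0.3003 FPKM in any library, and the adipocyte markers summed to 8.89 to 14.3 FPKM in wild-type and to 11.98, 33.6 and 17.6 FPKM in the KO. Of the 7, 5 were listed at 0 in KO replicate 3, where Plin4 alone was at 17.5 FPKM and the other 6 summed to 0.0465 FPKM. The 16 tested genes known to be induced by these receptors had no call (limma), with 6 negative and 10 positive and a median difference of 0.11. At an unadjusted p under 0.05 stood 2 of them, next to 17.5% of all tested genes (the share to set beside each list below). These 2, Ehhadh and Acot2, named after their values were seen, were higher in the KO. Separate genotypes were found for 1 lower and 3 higher genes of the list, next to 16.1% and 16.8% of all tested genes. Cpt1a, which admits fatty acids to mitochondria, was among the most abundant of the list. It was at 92.8 ± 2.62 FPKM in wild-type libraries, against 86.3, 47.7 and 26.8 FPKM in the KO (limma, adjusted p = 0.292). Each KO library lay below wild-type, KO replicate 3 lowest.

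Among the retinoic acid receptors, Rara (NCBI gene 19401, chromosome 11, 98927800 to 98974942) was higher in each KO library. It was at 8.75, 8.08 and 7.93 FPKM in wild-type libraries, against 11.5, 13.4 and 17.5 FPKM in the KO, with no overlap and with KO replicate 3 highest. The mean was 1.71-fold higher, or 1.505-fold without KO replicate 3 (log2 difference 0.69 ± 0.16 SE, limma, adjusted p = 0.149). Of the alternatives, which gave adjusted p from 0.044 to 0.56, leaving out KO replicate 3 was the one under which it passed (0.53, adjusted p = 0.044). Rarg (chromosome 15, 102234938 to 102257522), the isotype known best from skin, was at 12.7, 13.3 and 13.9 FPKM in wild-type libraries, against 13.6, 17.9 and 23.7 FPKM in the KO. KO replicate 1 lay among the wild-type libraries and the other two above them (log2 difference 0.41 ± 0.19 SE, limma, adjusted p = 0.332). Rarb, itself known as a gene induced by retinoic acid, was at 0.768 to 1.11 FPKM in wild-type libraries, against 1.13, 1.02 and 0.449 FPKM in the KO, below the tested level.

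The retinoid X receptors, the shared partners of many of the other receptors, differed little between libraries. Rxra was at 20.0, 20.1 and 20.5 FPKM in wild-type libraries, against 19.5, 22.6 and 23.4 FPKM in the KO (log2 difference 0.10 ± 0.10 SE, limma, adjusted p = 0.577). Rxrb was at 18.3, 18.8 and 19.8 FPKM in wild-type libraries, against 19.9, 17.3 and 21.3 FPKM in the KO (0.03 ± 0.11 SE, adjusted p = 0.863). Rxrg was at most 0.0792 FPKM. In both Rxra and Rxrb the genotypes overlapped. Of 7 tested genes known to be induced by retinoic acid none passed (limma), 2 had an unadjusted p under 0.05, and 4 were negative and 3 positive. Among the most abundant was Tgm2, a transglutaminase, at 64.9, 70.9 and 70.8 FPKM in wild-type libraries, against 78.8, 55.6 and 9.55 FPKM in the KO, where replicate 3 was lowest and replicate 1 above the wild-type range. Without KO replicate 3, 2 genes of this list passed, chosen for mention after their values were seen. Cyp26b1, an enzyme that degrades retinoic acid, differed by -1.05 (limma, adjusted p = 0.0232), and Rarres1 by 0.61 (adjusted p = 0.0417) on the log2 scale.

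Of the thyroid hormone receptors, Thrb (NCBI gene 21834, chromosome 14, 17659225 to 18040097) was lower in the KO and Thra was similar between the genotypes. Thrb was at 3.04, 2.61 and 2.74 FPKM in wild-type libraries, against 1.76, 1.62 and 1.11 FPKM in the KO. All 3 KO libraries lay well below the lowest wild-type library, and the mean was 1.87-fold lower, or 1.65-fold without KO replicate 3 (log2 difference -0.61 ± 0.15 SE, limma, adjusted p = 0.161, range over the alternatives 0.058 to 0.57). Thra (chromosome 11, 98740776 to 98769006), the more abundant of the pair, was at 14.9, 13.4 and 13.3 FPKM in wild-type libraries, against 11.6, 14.4 and 11.9 FPKM in the KO, with overlap (-0.13 ± 0.12 SE, adjusted p = 0.54). Of 7 tested genes known to be induced by thyroid hormone none passed and none had an unadjusted p under 0.05 (limma). Without KO replicate 3, Gpd2, a mitochondrial glycerophosphate dehydrogenase named here after its value was seen, passed as higher (0.49, adjusted p = 0.0461). In KO replicate 3, however, Gpd2 was at 2.81 FPKM, below the 3.77 to 4.44 FPKM of the wild-type libraries. With all libraries its genotypes overlapped (0.19 ± 0.27 SE, limma, adjusted p = 0.704). Klf9 and Hr, a transcription factor and a corepressor of this list, were at 19.0 ± 0.548 against 16.7 ± 4.48 FPKM and at 8.07 ± 0.132 against 9.91 ± 4.37 FPKM (SD, n = 3).

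Vdr, the vitamin D receptor, was at 1.21, 1.13 and 0.834 FPKM in wild-type libraries, against 0.956, 0.765 and 0.151 FPKM in the KO, below the tested level. Of 7 genes known to be induced by vitamin D, 3 were tested and all 3 were positive without a call (limma, 1 at an unadjusted p under 0.05). S100g, the calcium-binding calbindin D9k, was at 2.08, 1.74 and 1.005 FPKM in wild-type libraries, against 5.25, 16.7 and 15.3 FPKM in the KO, with no overlap (log2 difference 2.25 ± 0.43 SE, limma, adjusted p = 0.108). These values correspond to only 5.20 to 10.8 normalized counts in wild-type and 27.2 to 86.6 in the KO. Spp1, the secreted phosphoprotein osteopontin, was high in a single library, at 39.2 FPKM in KO replicate 2 against 0.550 to 1.60 FPKM in the other 5. Its wild-type mean was 0.911 FPKM, so it reached the tested level only through the KO libraries, and its positive sign is tied to that filter.

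The oxysterol receptors differed in where they were variable. Nr1h2 (LXR beta, chromosome 7, 44549616 to 44553968) was at 40.7, 47.0 and 43.9 FPKM in wild-type libraries, against 41.8, 42.4 and 50.9 FPKM in the KO, with overlap (log2 difference 0.03 ± 0.12 SE, limma, adjusted p = 0.883). Nr1h3 (LXR alpha, chromosome 2, 91184061 to 91202829), the isotype known from liver and macrophages, was at 2.64, 1.92 and 1.99 FPKM in wild-type libraries, against 1.79, 2.39 and 6.77 FPKM in the KO. It was thus above the wild-type range in KO replicate 3 alone (0.40 ± 0.39 SE, adjusted p = 0.575), and without that library its difference was -0.04. The 8 macrophage markers, all present, summed to 180 to 190 FPKM in wild-type and to 117, 265 and 109 FPKM in KO replicates 1, 2 and 3. The part of macrophages in the Nr1h3 level was not tested. Of 12 tested genes known to be induced by LXR none passed (limma) and 9 were negative, with a median of -0.49, or -0.09 without KO replicate 3. At an unadjusted p under 0.05 stood 5 of the 12, next to 17.5% of all tested genes. Among these, all but Scd2 named after their values were seen, Lpcat3 was higher in the KO and Scd1, Scd2, Abcg1 and Srebf1 were lower. Separate genotypes were found for 4 lower and 1 higher genes of the list, next to 16.1% and 16.8% of all tested genes. Scd2, a fatty acid desaturase, was at 433, 437 and 429 FPKM in wild-type libraries, against 394, 218 and 185 FPKM in the KO (adjusted p = 0.252). Apoe, a carrier of cholesterol, was at 1389 to 1408 FPKM in wild-type libraries, against 1331, 1664 and 376 FPKM in the KO.

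The bile acid receptor Nr1h4 (FXR) was at most 0.136 FPKM and Nr0b2, the small heterodimer partner, at most 0.122 FPKM. Nr1h5, the FXR-related receptor of mice, was at 0.256, 0.252 and 0.386 FPKM in wild-type libraries, against 0.421, 0.970 and 1.14 FPKM in the KO, which correspond to 11.7 to 17.7 and 20.7 to 52.0 normalized counts. Each KO library lay above each wild-type library, at a level below the tested one. Of 10 genes known to be induced by FXR or by the related xenobiotic receptors, Abcb1a, a drug exporter, alone reached the tested level, at 3.45, 3.36 and 3.44 FPKM in wild-type libraries, against 1.54, 4.23 and 0.117 FPKM in the KO (limma, adjusted p = 0.423).

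The REV-ERB receptors, haem-binding repressors in the circadian clock, were slightly lower in the KO. Nr1d1 (chromosome 11, 98767932 to 98775377) was at 8.32, 7.99 and 8.76 FPKM in wild-type libraries, against 7.06, 7.69 and 6.18 FPKM in the KO. Nr1d2 (chromosome 14, 18204056 to 18239106) was at 17.5, 16.4 and 16.8 FPKM in wild-type libraries, against 13.7, 16.2 and 11.8 FPKM in the KO. In both the KO libraries lay below all wild-type libraries, KO replicate 2 nearest to them, and the means were 1.20-fold and 1.22-fold lower (log2 differences -0.23 ± 0.11 and -0.28 ± 0.13 SE, limma, adjusted p = 0.327 and 0.322). The labels give no time of day for the tissue collection. Of the ROR receptors, activators that share DNA sites with the REV-ERBs, Rora was at 2.18 to 2.46 FPKM in wild-type libraries, against 1.61 to 2.27 FPKM in the KO. Rorb was at most 0.0392 FPKM, with at most 6.25 normalized counts in a library.

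Clock genes as a list had 12 tested members, of which 7 were negative and 5 positive, with a median of -0.14. At an unadjusted p under 0.05 stood 3 of them, and none passed (limma). Tef, a clock-driven transcription factor, was at 21.9, 20.9 and 21.0 FPKM in wild-type libraries, against 15.3, 16.7 and 10.02 FPKM in the KO, with no overlap (log2 difference -0.60 ± 0.19 SE, adjusted p = 0.213). Without KO replicate 3 its adjusted p was 0.0453, and that of Hlf, a related factor named after its value was seen, was 0.0169 at a log2 difference of -1.31. Of the 3 genes at an unadjusted p under 0.05, Tef and Hlf were lower and Nfil3, also named after its value was seen, was higher. Nfil3 was at 7.07, 7.19 and 6.65 FPKM in wild-type libraries, against 7.69, 9.43 and 11.6 FPKM in the KO (log2 difference 0.39 ± 0.15 SE, limma, adjusted p = 0.264). Dbp, another clock gene, overlapped (0.08 ± 0.12 SE, adjusted p = 0.724). Per1, a core clock gene, was at 12.3 ± 0.733 FPKM in wild-type libraries, against 12.3 ± 1.30 FPKM in the KO (SD, n = 3; adjusted p = 0.988).

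Of the estrogen-related receptors, orphan regulators of mitochondrial genes, Esrra (chromosome 19, 6910977 to 6922048) was at 11.9, 12.4 and 12.2 FPKM in wild-type libraries, against 12.4, 10.4 and 18.6 FPKM in the KO. KO replicate 3 was high and KO replicate 2 low (log2 difference 0.13 ± 0.20 SE, limma, adjusted p = 0.73). Esrrb was at 0.696, 0.468 and 0.992 FPKM in wild-type libraries, against 0.248, 0.398 and 3.25 FPKM in the KO. Without KO replicate 3 it was lower in the KO than in any wild-type library, and KO replicate 3 was higher than any of them, at 242 normalized counts against 18.5 to 73.9 in the others. Esrrg was at 2.15 to 2.65 FPKM in wild-type libraries, against 2.52 to 3.12 FPKM in the KO. Of 8 tested genes of oxidative metabolism known as targets none passed and none had an unadjusted p under 0.05 (limma). Cox4i1, a subunit of cytochrome oxidase, was at 526 ± 12.8 FPKM in wild-type libraries, against 573, 536 and 1222 FPKM in the KO, and Atp5b, a subunit of ATP synthase, at 368 ± 4.77 against 343 ± 30.8 FPKM (SD, n = 3).

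Among the orphan receptors of the NR2 family, Nr2f6 (NCBI gene 13864, chromosome 8, 71374118 to 71381967), a repressor known from lymphocytes, was higher in each KO library. It was at 41.3, 38.3 and 38.0 FPKM in wild-type libraries, against 53.2, 47.7 and 75.7 FPKM in the KO, with no overlap and with KO replicate 3 highest (1.503-fold higher on average, log2 difference 0.55 ± 0.18 SE, limma, adjusted p = 0.226, range over the alternatives 0.07 to 0.61). The T and NK cell markers summed to at most 2.61 FPKM in any library. Nr2c2 (testicular receptor 4, chromosome 6, 92091418 to 92173058) was lower in each KO library, at 5.32, 4.64 and 4.70 FPKM in wild-type libraries, against 3.48, 3.56 and 1.12 FPKM in the KO. Its mean was 1.80-fold lower, or 1.39-fold without KO replicate 3 (-0.74 ± 0.31 SE, adjusted p = 0.292, range 0.073 to 0.63). Its paralog Nr2c1 was at 7.25 to 8.17 FPKM in wild-type libraries, against 7.05 to 8.30 FPKM in the KO (-0.01 ± 0.10 SE, adjusted p = 0.95).

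Nr2c2 was named for its testis expression, and germ cell RNA was scarcer in the KO libraries. The 10 spermatid and sperm transcripts summed to 104 to 110 FPKM in wild-type and to 20.8, 7.54 and 1.40 FPKM in KO replicates 1, 2 and 3, and 4 of the 10 were listed at 0 in replicate 3. Prm1, which packs sperm DNA, and Ldhc, a sperm lactate dehydrogenase, fell past the threshold (log2 differences -3.19 and -1.66, limma, adjusted p = 0.0333 and 0.0438). The part of these transcripts in the Nr2c2 level was not tested. Nr6a1, the germ cell nuclear factor, did not share this pattern, at 1.64, 1.43 and 1.45 FPKM in wild-type libraries, against 1.42, 2.17 and 2.67 FPKM in the KO (log2 difference 0.28 ± 0.19 SE, limma, adjusted p = 0.444).

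The COUP transcription factors Nr2f1 and Nr2f2, known from mesenchyme and vessels, were low in KO replicate 3. Nr2f1 (chromosome 13, 78188971 to 78198873) was at 1.70, 1.33 and 1.75 FPKM in wild-type libraries, against 1.65, 1.13 and 0.0313 FPKM in the KO, where the last value corresponds to 1.30 normalized counts (log2 difference -0.52 ± 0.36 SE, limma, adjusted p = 0.456; -0.12 without KO replicate 3). Nr2f2 (chromosome 7, 70351946 to 70366746) was at 13.4, 13.2 and 12.1 FPKM in wild-type libraries, against 10.99, 15.3 and 7.32 FPKM in the KO (-0.24 ± 0.24 SE, adjusted p = 0.586; 0.01 without KO replicate 3). In both, the genotypes overlapped, and KO replicates 1 and 2 lay on or near the wild-type level.

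Markers of the tissue around the epithelium were also low in KO replicate 3, and the fibroblast markers were below wild-type in each KO library. The 10 smooth muscle markers summed to 2229 to 2507 FPKM in wild-type and to 2464, 911 and 237 FPKM in KO replicates 1, 2 and 3. Most of this sum is Actg2, an enteric smooth muscle actin, except in KO replicate 2, where Actg2 was at 306 FPKM. The other 9 summed to 553 to 596 FPKM in wild-type and to 446, 605 and 61.0 FPKM in the KO, low in replicate 3 but not in replicate 2. The 5 fibroblast markers summed to 399 to 453 FPKM against 160, 342 and 33.7 FPKM, and the 7 endothelial markers to 56.3 to 60.4 FPKM against 56.1, 43.9 and 2.43 FPKM. The basal cell markers summed to 146 to 153 FPKM against 156, 213 and 21.1 FPKM, and the 7 luminal epithelial markers to 1206 to 1277 FPKM against 1612, 1455 and 2469 FPKM. None of these markers was listed at 0 in KO replicate 3. In such whole-tissue RNA, fewer cells of a type and less RNA per cell cannot be told apart. The part of these cells in the levels of the receptor genes in KO replicate 3 was not tested.

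**Figure D3:**
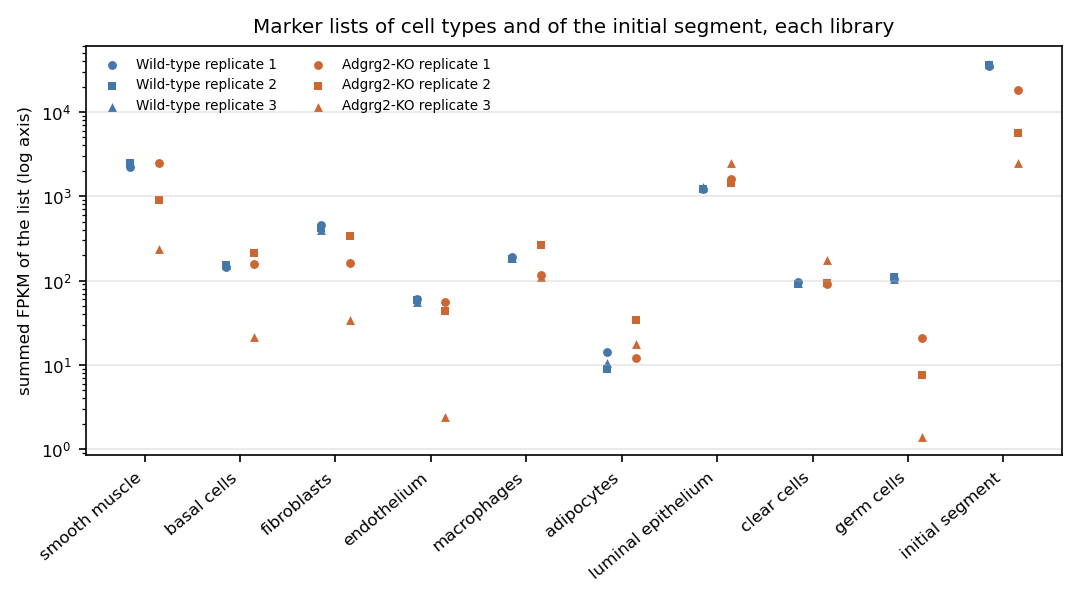
Summed FPKM (log axis) of marker lists of cell types and of the initial segment in each library, with wild-type in blue and Adgrg2-KO in orange. In KO replicate 3 (orange triangles) smooth muscle, basal, fibroblast and endothelial lists lie below all other libraries, and luminal epithelial markers lie above them.

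**Figure D4:**
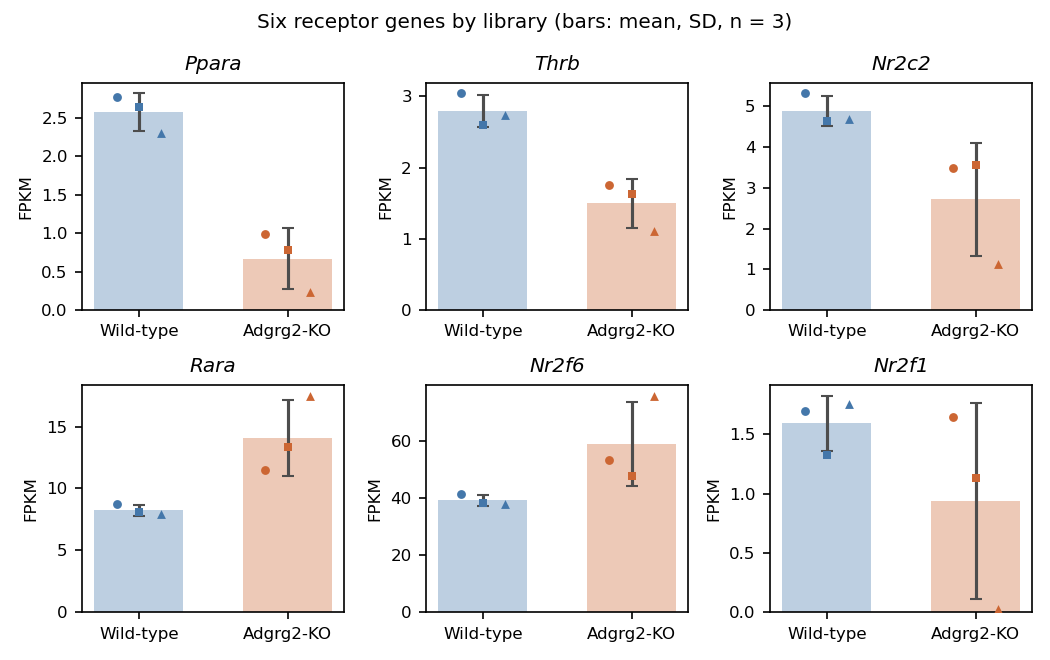
FPKM of Ppara, Thrb, Nr2c2, Rara, Nr2f6 and Nr2f1 in each library (points), with bars for the mean and error bars for the SD (n = 3 per genotype). The genotypes are separate for the first 5 genes, and for Nr2f1 only KO replicate 3, at 0.0313 FPKM, lies far from the other libraries.

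The remaining receptor genes were scarce. Nr4a2, an immediate early orphan receptor, was at 0.762, 0.770 and 0.574 FPKM in wild-type libraries, against 1.47, 1.30 and 0.940 FPKM in the KO, which correspond to 30.2 to 40.5 and 50.7 to 77.2 normalized counts. Each KO library lay above each wild-type library, below the tested level. Hnf4a, a receptor of gut and liver epithelia, was at 0.538 to 1.25 FPKM in wild-type libraries, against 0.0336 to 0.920 FPKM in the KO, with overlap. Hnf4g was at most 0.137 FPKM, Nr4a3 at most 0.208 FPKM and Nr5a2, which is known from liver and ovary, at most 0.357 FPKM in any library. Nr0b1 was above 0 in wild-type replicate 2 alone, at 0.0379 FPKM. Nr5a1, Nr2e1 and Nr2e3 were listed at 0 in all 6 libraries. Of the 17 receptor genes below the tested level, Nr4a2, Nr1h5 and Rorb were the 3 whose genotypes did not overlap. They were not tested, and Rorb rests on 1.09 to 6.25 normalized counts in a library.

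Several of these genes are neighbours. Thra, Nr1d1 and Rara lie within 234 kb on chromosome 11 (98740776 to 98974942), and Rarb, Thrb and Nr1d2, their paralogs, within 1808 kb on chromosome 14 (16430839 to 18239106). On chromosome 11 Rara was higher in each KO library, Nr1d1 was lower in each and Thra overlapped. On chromosome 14 Thrb and Nr1d2 were lower in each KO library and Rarb overlapped. The annotated ends of Thra and Nr1d1 overlap on opposite strands over 1075 bases, and with no strand setting stated for the counting, reads of this stretch may be shared between these genes. Nr2c2 overlaps Mrps25, a mitochondrial ribosomal protein gene at 8.56 FPKM, over 3547 bases, so its value is uncertain in the same way.

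Coregulators, the proteins through which the receptors act on chromatin, did not pass the threshold either. Of 10 tested coactivators 8 were negative and 1 had an unadjusted p under 0.05 (limma), with a median of -0.14, or 0.03 without KO replicate 3. Kat2b, an acetyltransferase, was at 18.6, 17.1 and 17.3 FPKM in wild-type libraries, against 13.2, 13.5 and 10.5 FPKM in the KO, with no overlap (log2 difference -0.48 ± 0.12 SE, adjusted p = 0.162), and it passed without KO replicate 3 (adjusted p = 0.048). Ep300, the acetyltransferase p300, was at 14.003 ± 1.15 FPKM in wild-type libraries, against 13.5 ± 3.35 FPKM in the KO (SD, n = 3). Of 9 corepressors 6 were negative and none had an unadjusted p under 0.05, with a median of -0.30, or -0.06 without KO replicate 3. Hdac3, the deacetylase of the corepressor complex, was at 52.6 ± 1.10 FPKM in wild-type libraries, against 59.9 ± 11.5 FPKM in the KO (SD, n = 3). The medians of both lists were near 0 in KO replicates 1 and 2 and at -0.52 and -0.74 in KO replicate 3.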

How the data were processed

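The 6 caput epididymis libraries were grouped by the labels, 3 per genotype. RNeasy columns and a stranded mRNA kit were used, per the labels' protocols. TopHat2 2.1.1, Cufflinks 2.2.1 and mm10 appear in the submitters' processing notes, while no annotation, strand setting or normalization method is stated there. The authors deposited FPKM that had been normalized, per the file headers, and the deposited normalized counts are a signal, no longer raw counts, so no count model was fitted. Those 12799 of 24346 genes that averaged 1 FPKM or more were tested for genotype alone with limma 3.58.1 in R 4.3.3 (log2(FPKM + 1), mean-variance trend, two-sided), with Benjamini-Hochberg adjustment over all of them at 0.05. This scale understates the differences of low values. The script was tested on simulated data. Tables were made with Python 3.11.15, pandas 2.3.3 and numpy 2.4.6. Since the counts were normalized, their sums are not the sequencing depth, and they give only roughly the fragments behind a low value.

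The receptor genes, the gene lists and the tests were chosen with earlier results of these data known. Receptor genes at 10 FPKM or more, with an unadjusted p under 0.05 or with separate genotypes are given by library, and of each list the members past the threshold or else the 2 most abundant tested ones; other genes named were chosen after their values were seen. The values of some genes that this rule covers are not reported here. Coordinates and promoter windows are from RefSeq (GRCm38.p6), where all 40 receptor genes were found by their gene ID and 36 had a window. Wild-type libraries differed from each other by more than sampling noise (chi-square per degree of freedom 3.06 to 4.73). The alternatives were other pseudocounts, filters, scalings and moderation, the replicate number as a block, the normalized counts, and each library left out.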

Additional observations from a re-analysis of the deposited data

How the results depend on the processing

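Of 237 combinations of the 15 named receptor genes with an alternative, 226 kept the direction and the side of the threshold, 5 passed the threshold (3 for Ppara, 1 for Ppard, 1 for Rara) and 6 turned direction, all in genes with small differences. Nr1h2 was at -0.019 with quantile normalization. With each library left out in turn, the log2 difference ranged from -0.056 to 0.082 for Nr1h2, -0.094 to 0.297 for Esrra, -0.478 to 0.007 for Nr2f2 and -0.03 to 0.114 for Rxrb. The cause was not tested.

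Over all genes, 22 were lower and 10 higher. The lower count was 7 and 3 with pseudocounts of 0.1 and 0.01, 57 with no filter, 10 with a minimum mean of 5 FPKM, 66 with quantile normalization, 2 with normalized counts, and 1 to 352 with a library left out. The higher count was 40 with quantile normalization, 4 with normalized counts, and 1 to 332 with a library left out. The replicate block gave 1 lower and 0 higher genes and no receptor gene; same-numbered libraries deviated together with correlations of -0.113, 0.032 and 0.08, and 1 of 3 wild-type libraries correlated best with its own number, so the numbers were not taken to pair the samples. Receptor genes called were 1 with quantile normalization and 0 to 2 with a library left out. Receptor genes with separate genotypes were 4 with a minimum mean of 5 FPKM, where fewer receptor genes were tested, and 8 to 13 with a library left out. Leaving out a library can only add such genes. Over all tested genes the share was 32.9% with all libraries and 44.8% without KO replicate 3, and it was not computed for the other settings. The planned count test was not run, since whole fragments could not be recovered from the table.

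The design of 3 libraries per genotype, with wide spread in the KO, limits the test: the 3.86-fold difference of Ppara, the 1.87-fold difference of Thrb and the 2.36-fold difference of Adgrg2 did not pass it with all libraries. Members below 1 FPKM rest on few fragments.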
